A study of Mus musculus with 144 samples.

Results

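The genes described here are the 10 genes of bile acid synthesis, conjugation, uptake and feedback control that were chosen by name: Cyp7a1, Cyp8b1, Cyp27a1, Cyp7b1, Slc27a5, Baat, Slc10a1, Nr1h4, Nr0b2 and Nr5a2. All 10 were found among the 51912 gene symbols of the raw count table, and all 10 averaged 10 or more counts a library in each fit, the minimum for a test. The study read the 3′ ends of polyadenylated RNA (QuantSeq, which counts a transcript once, next to its poly(A) tail) in livers of male C57BL/6J mice under alternating 12 h light and dark, with free access to food and water. It holds 4 series of 36 libraries: total RNA, nuclear RNA (nuclei pelleted through a sucrose cushion) and polysomal RNA (taken from a sucrose gradient after cycloheximide) from wild-type mice, as well as total RNA from mice labelled Bmal1-/-. Each series covers 6 zeitgeber times (ZT, counted in hours from lights on), namely ZT2, 6, 10, 14, 18 and 22, with 6 libraries a time. The labels give no ages and do not say which part of Bmal1 was altered, whether the wild-type mice were littermates, or whether the 6 libraries of a group came from 6 animals. The p-values therefore measure the spread between these libraries, which may in part be technical.

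Bile acids are made from cholesterol in hepatocytes by a classic route that starts with the 7α-hydroxylase CYP7A1, the rate-limiting step, and an alternative route that starts with the mitochondrial sterol 27-hydroxylase CYP27A1 and goes on through the oxysterol 7α-hydroxylase CYP7B1. CYP8B1 adds the 12α-hydroxyl group that separates cholic acid from the muricholic and chenodeoxycholic acids, SLC27A5 and BAAT activate the acids and join them to taurine or glycine, and SLC10A1 (NTCP) takes them back up from the portal blood. The bile acid receptor FXR (Nr1h4) induces SHP (Nr0b2), a nuclear receptor without a DNA-binding domain that dampens LRH-1 (Nr5a2), an activator of Cyp7a1, Cyp8b1 and Nr0b2 itself. Liver Cyp7a1 is a long-known rhythmic gene of rodents, and the clock proteins REV-ERB and DBP are among its regulators.

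A library held 5316601 to 9831142 gene counts for wild-type total RNA, 1662449 to 6620128 for nuclear RNA, 2578048 to 13068044 for polysomal RNA and 4379549 to 14281894 for Bmal1-/- RNA. Levels are given in CPM, a gene's share of these counts times 1000000. Arntl, the gene for BMAL1, was still counted in the libraries labelled Bmal1-/-, with means by time from 9.16 to 13.1 CPM and single libraries from 5.17 to 18.6 CPM, while in wild-type total RNA its means ran from 0.852 CPM at ZT10 to 12.6 CPM at ZT22. These counts come from the 3′ end of the transcript and do not check an alteration elsewhere in the gene. All 8 hepatocyte markers examined (among them Alb, Ttr and Cps1) had a mean above 10 counts in each series. Lung markers (Scgb1a1 and Sftpc) summed to at most 0.301 CPM in any total or nuclear library and to as much as 915 CPM in polysomal RNA, where exocrine pancreas markers reached 768 CPM. All mice are labelled male, yet 1 library of each series had Xist, the RNA of the inactive X chromosome of females, above 100 CPM, all 4 at ZT22: replicate 5 in total (408 CPM) and nuclear RNA (4363 CPM), replicate 1 in polysomal RNA (165 CPM) and replicate 6 of Bmal1-/- (491 CPM), while the other libraries lay at or below 5.67 CPM. Results that changed without these 4 libraries, an alternative chosen after seeing the data, are given beside their values.

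Promoter windows of the 250 bases before an annotated start (RefSeq, build GRCm38.p6) were given for 6 of the 10 members: Cyp27a1, Nr5a2, Nr0b2, Cyp8b1, Nr1h4 and Slc10a1. The windows of Nr0b2 (chr4:133553126-133553375, plus strand) and Cyp8b1 (chr9:121916306-121916555, minus strand) are shown because both hold the letters of the LRH-1 site and that of Nr0b2 also holds the E-box, the letters to which CLOCK and BMAL1 bind. Each reads 5′ to 3′ and ends at the base before the start, and the capitals mark the matches.
Nr0b2: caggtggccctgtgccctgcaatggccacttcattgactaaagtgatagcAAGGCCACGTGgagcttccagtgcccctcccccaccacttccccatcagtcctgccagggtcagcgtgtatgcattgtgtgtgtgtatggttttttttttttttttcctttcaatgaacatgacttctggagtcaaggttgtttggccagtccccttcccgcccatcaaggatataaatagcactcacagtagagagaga
Cyp8b1: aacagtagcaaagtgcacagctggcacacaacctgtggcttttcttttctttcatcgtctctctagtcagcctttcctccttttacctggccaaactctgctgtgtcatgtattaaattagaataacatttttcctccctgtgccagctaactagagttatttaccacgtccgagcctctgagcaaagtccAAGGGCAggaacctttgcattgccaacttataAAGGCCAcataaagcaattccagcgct
In Nr0b2 the LRH-1 site AAGGNCA lay 200 to 194 bases before the start and overlapped the E-box CACGTG at 195 to 190 bases. Cyp8b1 held that LRH-1 site at 59 to 53 and at 27 to 21 bases before the start. Over 32536 such windows, searched on both strands, 6.04% held the E-box and 17.5% the LRH-1 site. The nuclear receptor half-site AGGTCA (14% of windows) was found in 1 window each of Nr5a2, Nr1h4 and Slc10a1. The D-box TTANGTAA (2.03% of windows), the FXR element, an inverted repeat of that half-site with 1 base between (0.00615%), and the HNF4 element, a direct repeat with 1 base between (0.0338%), were in none of the members' windows. These are matches of letters and not measured binding.

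The first comparison asked which members varied over the day in wild-type total RNA. Cyp7a1 had the largest daily swing of the 10, low in the first hours of light and high from ZT10 to ZT18. It averaged 34.8 CPM ± 11.3 (SD, n = 6) at ZT2, with a lowest, median and highest library of 21.3, 38.2 and 50 CPM, and 38.7 CPM ± 13 at ZT6 (20.8, 42.8 and 50.8 CPM). It averaged 133 CPM ± 55.5 at ZT10 (66.0, 131 and 209 CPM), 142 CPM ± 62.2 at ZT14 (77, 139.7 and 241 CPM) and 139 CPM ± 38.8 at ZT18 (81.5, 137 and 201 CPM). At ZT22 it averaged 61.4 CPM ± 30 (9.55, 76.1 and 83.0 CPM). All 12 libraries of ZT2 and ZT6 lay below all 18 of ZT10, ZT14 and ZT18, whereas ZT22 overlapped both sets. A fitted 24 h cosine peaked 14.8 h after lights on, with a peak-to-trough ratio of 5.26 (log2 2.39, SE 0.31, adjusted p 3.51e-06 by edgeR's quasi-likelihood test). In bulk tissue fewer cells of a type and less RNA per cell cannot be told apart.

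Of the 10 members 6 were called rhythmic in wild-type total RNA, where 18.9% of 11964 genes were. The members' median log2 swing was 0.55, against 0.32 over all genes. A fitted swing cannot be negative and grows with the spread between libraries. These medians, here and for the lists below, therefore do not by themselves show stronger rhythms. In Bmal1-/- RNA, where 0 members were called, they were 0.28 and 0.19. Nr0b2, the SHP gene, had its highest mean at ZT2, 39.2 CPM ± 4.04 (33.0, 40.3 and 43.7 CPM for the lowest, median and highest library). Its means at the other 5 times lay between 14.9 and 23.5 CPM. Its lowest time was ZT18, at 14.9 CPM ± 5.15 (5.15, 15.8 and 20.3 CPM), without overlap with ZT2. At ZT6, ZT10, ZT14 and ZT22 the highest library (34.2, 36.5, 35.4 and 36.5 CPM) lay above the lowest of ZT2. The fit gave a ratio of 2.06 with a peak at 3.38 h (log2 1.04, SE 0.25, adjusted p 0.00901). The fitted peak of Nr0b2 fell between ZT2 and ZT6, the times at which Cyp7a1 was lowest.

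The other rhythmic members moved by less. Slc10a1, the uptake carrier, averaged 174 CPM ± 29.7 at ZT2, reached 256 CPM ± 27.1 at ZT10 and stood at 161 CPM ± 34.8 at ZT22, with a ratio of 1.49 and a peak at 12.2 h (adjusted p 0.000713). Nr1h4, the FXR gene, followed nearly the same course, with 44.5 CPM ± 10.7 at ZT2 and a maximum of 62.8 CPM ± 6.05 at ZT10 (ratio 1.41, peak at 13.5 h, adjusted p 0.00717). Nr5a2, the LRH-1 gene, ran the opposite way, from 83.5 CPM ± 9.29 at ZT6 to 60 CPM ± 11.7 at ZT14 (ratio 1.30, peak at 4.04 h, adjusted p 0.0140). Baat, the conjugating enzyme, had its lowest mean at ZT6, 101 CPM ± 13.9, and its highest at ZT2, 145 CPM ± 34.3 (ratio 1.46, peak at 21.5 h, adjusted p 0.0138). At ZT2 1 library had 210.1 CPM and the others 112 to 147 CPM.

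The other 4 members were not called, which does not show that they had no rhythm. Cyp8b1 had its highest mean at ZT2, 454 CPM ± 96.8, and its lowest at ZT14, 240.2 CPM ± 136, but libraries at one time differed widely, from 90.5 to 451 CPM at ZT14 (ratio 1.60, adjusted p 0.264). Cyp27a1 held between 294 and 350.5 CPM (ratio 1.19, adjusted p 0.470), and Slc27a5, the acyl-CoA synthetase for bile acids, between 366 and 419 CPM (ratio 1.11, adjusted p 0.537). Cyp7b1 ran from 9.13 to 593 CPM over the 36 libraries and had a coefficient of variation between libraries of 1 time of 71.3% (median over times), against 17.6% for Cyp27a1; its ratio was 1.47 (adjusted p 0.751).

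Cyp7a1 was called in every alternative fit of this comparison. Without the libraries numbered 2 the count fell to 3, with adjusted p of 0.0591 for Nr0b2, 0.0638 for Nr1h4 and 0.0856 for Nr5a2. The call of Baat was lost without number 1 (adjusted p 0.0955) or 3 (0.0598). That of Nr5a2 was also lost without number 1 (0.0592) or 3 (0.0928), with all genes in the fit (0.0591), with all 4 series in 1 fit (0.136) and with time as a factor (0.0539), and that of Nr1h4 with time as a factor (0.0505). Replicates 1 to 3 alone gave 7 calls, and replicates 4 to 6 gave 1.

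**Figure D1:**
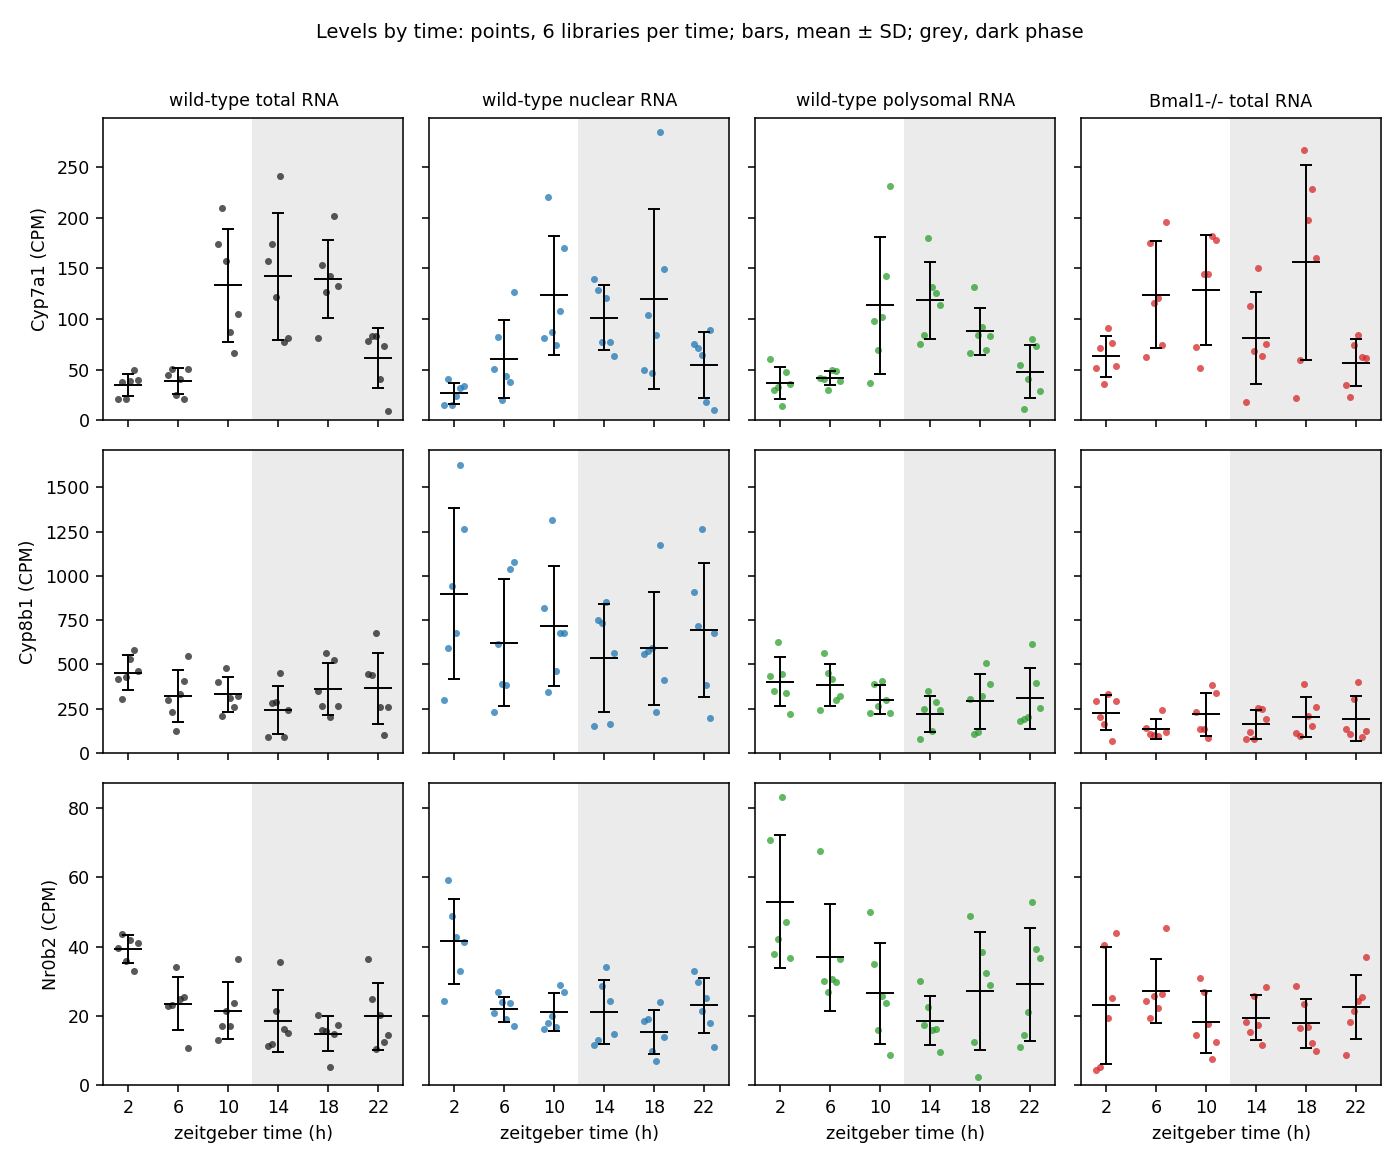
Levels of Cyp7a1, Cyp8b1 and Nr0b2 (CPM, linear axes from 0) against zeitgeber time in the 4 series; points are single libraries, bars the mean ± SD of 6 libraries, and grey marks the dark phase. In wild-type total RNA Cyp7a1 lies at or below 50.8 CPM at ZT2 and ZT6 and at or above 66.0 CPM from ZT10 to ZT18, Nr0b2 is highest at ZT2, and in Bmal1-/- RNA Cyp7a1 at ZT6 lies between 62.8 and 196 CPM.

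The course of Cyp7a1 was also seen in the 2 fractions. In nuclear RNA it averaged 26.6 CPM ± 10.5 at ZT2 and 123 CPM ± 58.7 at ZT10, with a fitted ratio of 4.08 and a peak at 13.8 h (log2 2.03, SE 0.36, adjusted p 0.000809). In polysomal RNA it averaged 36.8 CPM ± 15.9 at ZT2 and 118 CPM ± 37.7 at ZT14, with a ratio of 4.30 and a peak at 14.1 h (log2 2.10, SE 0.29, adjusted p 1.63e-05). Nr0b2 was called in nuclear RNA (41.5 CPM ± 12.2 at ZT2, 15.4 CPM ± 6.38 at ZT18, ratio 1.97, peak at 2.99 h, adjusted p 0.0316). In polysomal RNA its ratio was 2.06, with 52.9 CPM ± 19.3 at ZT2 and 18.6 CPM ± 7.04 at ZT14, and it missed the threshold (adjusted p 0.121).

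In nuclear RNA 2 of the 10 members were called, where 5.99% of 11172 genes were, and in polysomal RNA 3 of 10, where 7.90% of 10691 genes were. Besides Cyp7a1, the polysomal calls were Nr1h4 (59.6 CPM ± 13.5 at ZT10, 31.5 CPM ± 5.75 at ZT22, ratio 1.56, peak at 10.2 h, adjusted p 0.0148) and Slc10a1 (284 CPM ± 71.4 at ZT14, 192 CPM ± 49.3 at ZT2, ratio 1.57, adjusted p 0.0393). Without 1 replicate number the nuclear call of Nr0b2 was lost in 5 of 6 fits (all but number 4, adjusted p 0.0514 to 0.203), the polysomal call of Slc10a1 in 5 of 6 (all but number 2, 0.0625 to 0.240) and that of Nr1h4 without number 1, 2 or 5 (0.0518 to 0.102). Without the Xist libraries Slc10a1 missed the threshold in polysomal RNA (adjusted p 0.0537) and Nr5a2 passed it (0.0441). Nr5a2 also passed there with DESeq2 (adjusted p 0.0366). By edgeR it passed with the replicate block (0.00824), with all 4 series in 1 fit (0.000890) and without number 2 (0.0329). Polysomal Nr0b2 passed by edgeR with the block (0.0423), with all 4 series (0.0248), without number 1 (0.0212) and in replicates 4 to 6 (0.000309). Baat, rhythmic in total RNA, had a polysomal ratio of 1.06 (adjusted p 0.960). The test of the difference in rhythm between a fraction and total RNA called 0 members and 0% of genes in either fraction by edgeR, with unadjusted p under 0.05 for 0 members in nuclear RNA and for Nr1h4 (p 0.0327) in polysomal RNA. For Baat in polysomal RNA that test gave p 0.161 (adjusted p 0.963), so the fits do not show that the fractions differ. The nuclear test did not pair libraries of 1 replicate number, although nuclear and total libraries of 1 number deviated together in 34 of 36 pairs. It gave an unadjusted p under 0.05 for 244 of 11864 genes, where about 593 are expected without any difference. Its lack of calls is therefore weak evidence.

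**Figure D2:**
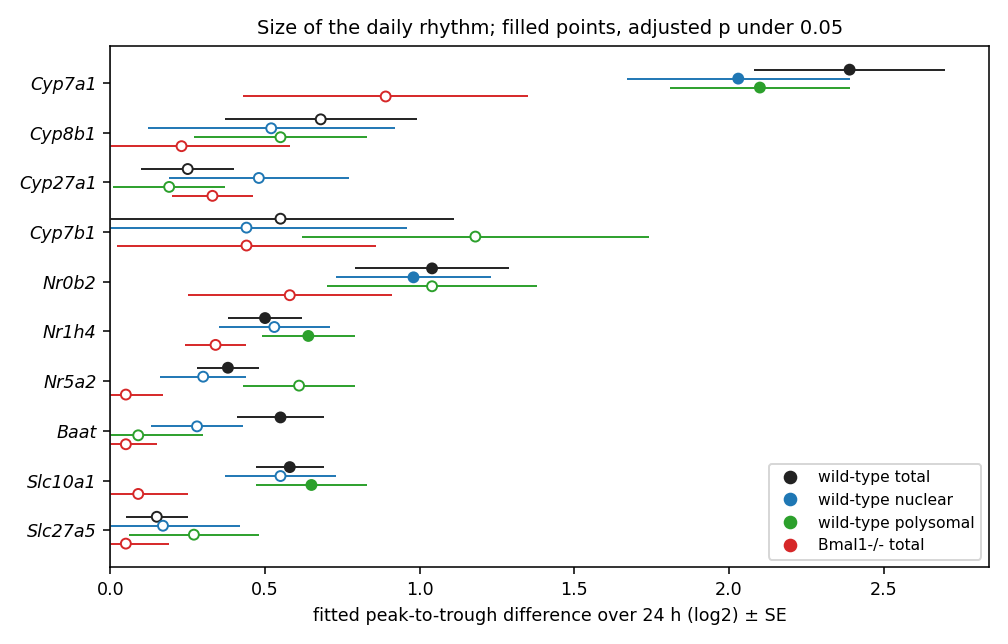
Fitted peak-to-trough difference over 24 h (log2) of the 10 members in the 4 series; bars are ± SE, cut at 0 where they reach it, and filled points have an adjusted p under 0.05. Cyp7a1 stands between 2.03 and 2.39 in the 3 wild-type series and at 0.89 in Bmal1-/- RNA, where no member is filled.

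The libraries labelled Bmal1-/- were then set against wild-type total RNA. In Bmal1-/- RNA 0 of the 10 members were called rhythmic by edgeR, where 0.00825% of 12126 genes were (1 gene, Xist, named after its value was seen, and 0 genes without the Xist libraries), and 2 members had an unadjusted p under 0.05 (Nr1h4, ratio 1.27, p 0.00555, and Cyp27a1, ratio 1.26, p 0.0446). DESeq2 likewise called 0. The fitted ratio of Cyp7a1 was 1.85 (log2 0.89, SE 0.46, p 0.177), that of Nr0b2 1.49 (p 0.220), that of Slc10a1 1.06 (p 0.845) and that of Baat 1.04 (p 0.869).

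The difference in rhythm itself was not called for any of the 10 members by edgeR, where it was for 5.18% of 12082 genes. The smallest p-values were those of Cyp7a1 (p 0.00433, adjusted p 0.0696), Baat (p 0.00569, adjusted p 0.0826) and Slc10a1 (p 0.0240, adjusted p 0.191). Cyp7a1 passed with DESeq2 (adjusted p 0.0392) and Baat with the replicate number as a block (adjusted p 0.0133) or without the Xist libraries (adjusted p 0.0357). For Nr0b2 the difference had p 0.523.

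At single times the contrast of Cyp7a1 was clearest at ZT6. The Bmal1-/- libraries averaged 124 CPM ± 52.9 (lowest, median and highest 62.8, 118 and 196 CPM) and the wild-type libraries 38.7 CPM ± 13, and all 6 Bmal1-/- libraries lay above all 6 of the wild type. The fitted log2 difference was 1.62 (SE 0.42, adjusted p 0.00664, a ratio of 3.07). Without the libraries numbered 3 its adjusted p was 0.0502, and within replicates 1 to 3 it was 0.147. At ZT14 Bmal1-/- stood at 81.1 CPM ± 45.2, against 142 CPM ± 62.2 (log2 -0.90, SE 0.41, adjusted p 0.174), and at ZT18 at 156 CPM ± 96.5 with a range from 22.5 to 267 CPM (log2 -0.02, SE 0.40). Over the whole day the difference of Cyp7a1 was 0.20 (SE 0.17, 95% interval -0.13 to 0.52, adjusted p 0.353), with -0.17 in replicates 1 to 3 alone and 0.57 in replicates 4 to 6 alone.

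Over the day 4 of the 10 members differed in level between Bmal1-/- and wild-type total RNA, where 44.1% of 12082 genes did (22.4% higher and 21.7% lower). The share of the members is near that of all genes. Their median log2 difference was -0.07, against 0.01 over all genes. Cyp8b1, the 12α-hydroxylase, was lower, at 189 CPM ± 100.2 (SD, n = 36; lowest, median and highest 68.8, 144 and 399 CPM), against 345 CPM ± 147 (90.5, 315 and 680.1 CPM) in the wild type. The 2 series overlapped, and the log2 difference was -0.96 (SE 0.17, adjusted p 4.28e-06), that is 1.95-fold lower, with -1.17 in replicates 1 to 3 alone and -0.74 in replicates 4 to 6 alone. Among the single times Cyp8b1 was called at ZT6, with 134 CPM ± 55.8 against 323 CPM ± 147 (log2 -1.33, SE 0.42, adjusted p 0.0321), a call that was lost without replicate 1, 2, 4 or 6 (adjusted p 0.0687 to 0.187).

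Cyp27a1, the first enzyme of the alternative route, was lower too, at 229 CPM ± 44.8 (133, 232 and 309 CPM) against 318 CPM ± 64.7 (200.1, 315 and 543 CPM), a 1.5-fold difference (log2 -0.58, SE 0.07, adjusted p 9.46e-11). Its mean was lower at 6 of 6 times and the call was made at 5 of them, with log2 differences from -0.90 at ZT2 to -0.50 at ZT14. At ZT2 it averaged 193 CPM ± 36.7 against 338 CPM ± 113, and at ZT10, the time without a call, 250.1 CPM ± 46.3 against 294 CPM ± 52.9. The call at ZT14 (adjusted p 0.0455) was lost in each of the 6 fits without 1 replicate number (0.0517 to 0.147). The call at ZT22 (adjusted p 0.0460) was lost without number 1, 2 or 6 (0.0977 to 0.282) and without the Xist libraries (0.0501). With all 4 series in 1 fit the calls at ZT6, ZT14, ZT18 and ZT22 were lost (adjusted p 0.111, 0.309, 0.159 and 0.325). The same 4 were lost within replicates 4 to 6 (0.0957, 0.181, 0.130 and 0.198). The call at ZT2 was lost within replicates 1 to 3 (0.427). In all, 7 of the 60 pairs of a member and a time were called, where 9.76% of genes were called at ZT2, 10.1% at ZT6, 16.4% at ZT10, 9.73% at ZT14, 12.7% at ZT18 and 6.97% at ZT22.

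Nr1h4 was slightly lower (log2 -0.15, SE 0.05, adjusted p 0.0184), a call lost within replicates 4 to 6 (-0.11, adjusted p 0.333) and without replicate 1 (adjusted p 0.0969) or 4 (adjusted p 0.118). The differences of Nr0b2 (-0.13, 95% interval -0.42 to 0.16), Nr5a2 (0.05, -0.06 to 0.16), Baat (-0.04, -0.16 to 0.08), Slc10a1 (0.05, -0.08 to 0.17) and Slc27a5 (-0.10, -0.22 to 0.02) did not pass the test. For Slc27a5 and Slc10a1 these values average unlike sets of replicates. By edgeR Slc27a5 gave -0.30 in replicates 1 to 3 (adjusted p 6.60e-05) and 0.06 in replicates 4 to 6 (adjusted p 0.641). Slc10a1 gave -0.16 (adjusted p 0.0899) and 0.24 (adjusted p 0.0435) in the same sets. The 5 cholangiocyte markers (among them Krt19, Epcam and Spp1, 2 of them above a mean of 10 counts) summed to 45.8 to 136 CPM in Bmal1-/- libraries, median 73.5, and to 16.2 to 66.6 CPM, median 25.7, in wild-type total RNA, with no marker at 0 throughout. Hepatocyte markers summed to a median of 62547 CPM against 79404 CPM. The 3 exocrine pancreas markers, 1 of them above a mean of 10 counts, summed to a median of 102 CPM (15.5 to 185) in Bmal1-/- libraries. In wild-type total RNA their median was 34.3 CPM (15.0 to 94.4). The part of these shifts in the differences above was not tested.

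**Figure D3:**
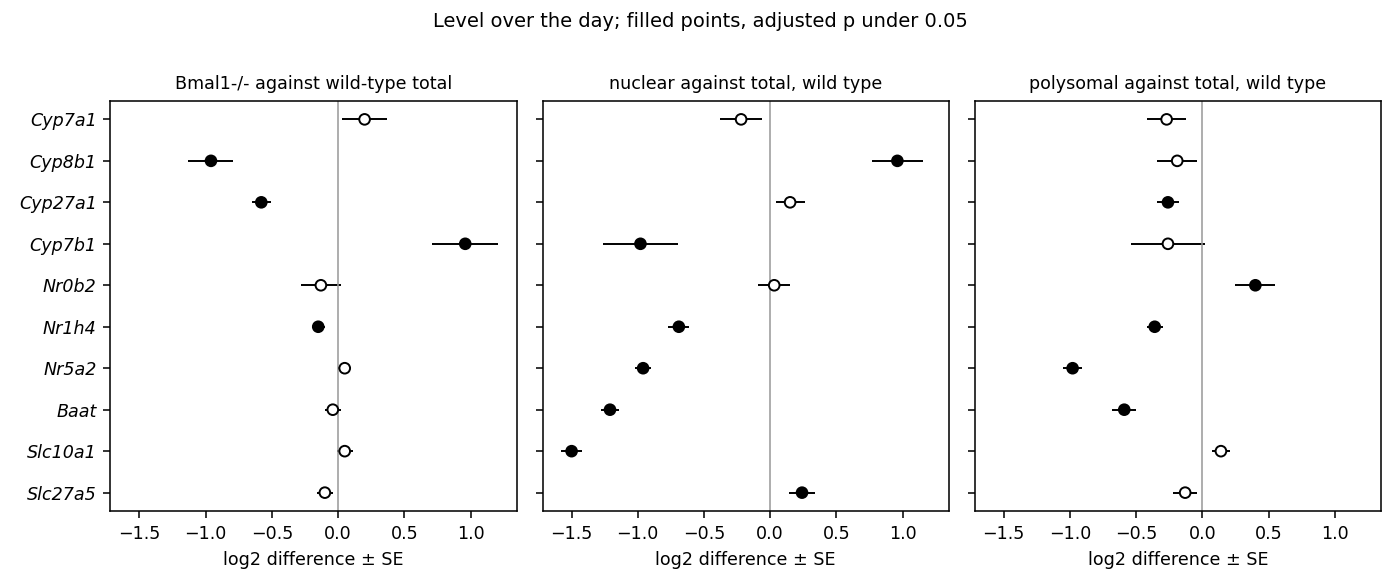
Log2 difference in level over the day (± SE) of the 10 members for Bmal1-/- against wild-type total RNA and for nuclear and polysomal against total RNA of the wild type; filled points have an adjusted p under 0.05. Cyp8b1 lies at -0.96 in Bmal1-/- and at 0.96 in nuclear RNA, and Slc10a1 lies lowest in nuclear RNA, at -1.5.

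Cyp7b1, the oxysterol 7α-hydroxylase, was called higher in Bmal1-/- RNA, at 368 CPM ± 191 against 177 CPM ± 132 (log2 0.96, SE 0.25, adjusted p 0.00132), but its level went with the replicate number as much as with the genotype. Wild-type total RNA averaged 99.2 CPM ± 89.8 (SD, n = 18; 50, 68.9 and 434 CPM) in replicates 1 to 3 and 256 CPM ± 122 (9.13, 241 and 593 CPM) in replicates 4 to 6. Nuclear RNA followed, with 52.9 CPM ± 49.5 and 137 CPM ± 57.8. Polysomal RNA ran the other way, with 245 CPM ± 141 in the first set and 76.6 CPM ± 33.7 in the second, and Bmal1-/- RNA had 440.1 CPM ± 153 and 297 CPM ± 202. The log2 difference between Bmal1-/- and wild type was 2.19 in replicates 1 to 3 alone (adjusted p 3.42e-08) and 0.03 in replicates 4 to 6 alone (adjusted p 0.955). The labels say nothing of what sets these numbers apart.

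Single libraries of Cyp7b1 broke the split in total and nuclear RNA at the same number and time. Replicate 2 at ZT18 had 434 CPM in total and 237 CPM in nuclear RNA, and replicate 5 at ZT22, which had Xist, 9.13 and 5.23 CPM. The polysomal library with Xist, replicate 1 at ZT22, had the lowest polysomal level, 8.81 CPM, and that of Bmal1-/- had 173 CPM. Without the 4 Xist libraries the Bmal1-/- difference of Cyp7b1 was 0.95 (adjusted p 0.00118). Cyp27a1 showed a milder form, with 283 CPM ± 37.6 against 354 CPM ± 67.5 for the sets 1 to 3 and 4 to 6 in total RNA of the wild type and 313 CPM ± 77.2 and 244 CPM ± 40.6 in polysomal RNA. For Cyp27a1 the Bmal1-/- difference was -0.46 in replicates 1 to 3 alone (adjusted p 8.07e-06) and -0.70 in replicates 4 to 6 alone (adjusted p 2.88e-07).

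**Figure D4:**
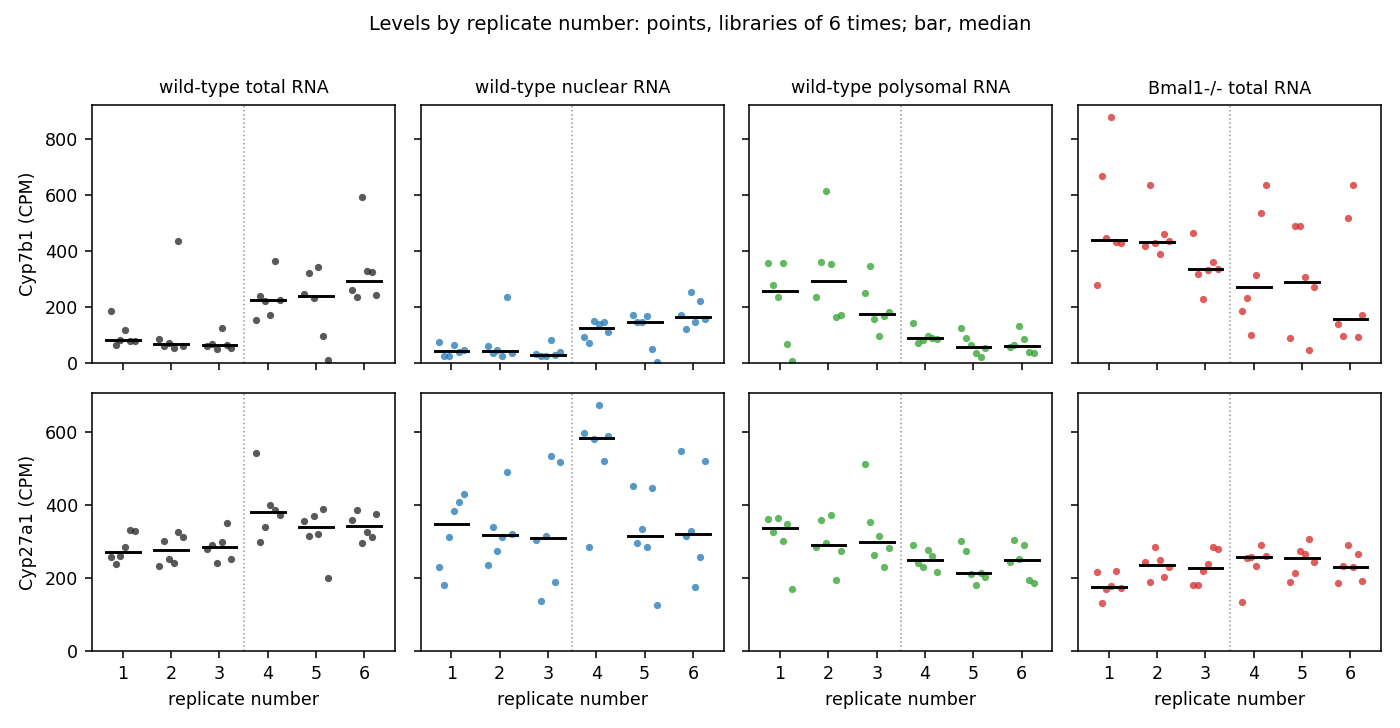
Levels of Cyp7b1 and Cyp27a1 (CPM, linear axes from 0) against replicate number in the 4 series; each point is 1 library, the 6 points of a number are the 6 times, and the bar is their median. In wild-type total and nuclear RNA Cyp7b1 is mostly low in numbers 1 to 3 and high in numbers 4 to 6, while in polysomal RNA it is the reverse.

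Next the fractions were set beside wild-type total RNA, on the scale of shares of each library. In nuclear RNA 7 of the 10 members differed, where 83.8% of 11864 genes did (41.6% higher and 42.1% lower): 2 were higher and 5 lower, with a median of -0.45 against -0.01 over all genes. Cyp8b1 was higher in nuclear RNA, at 676 CPM ± 362 (154, 647 and 1628 CPM) against 345 CPM ± 147, which is 1.94-fold (log2 0.96, SE 0.19, adjusted p 6.88e-06). The direction was the same within both sets of replicates (1.06 and 0.89), although the libraries overlapped.

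Slc10a1 had the lowest nuclear share of the 10 relative to total RNA: 75.6 CPM ± 17.2 (46.1, 74.9 and 107 CPM) against 209 CPM ± 42.2 (119.6, 209 and 284 CPM), 2.82-fold lower and without overlap (log2 -1.5, SE 0.08, adjusted p 3.94e-29). Baat was 2.32-fold lower (log2 -1.21, SE 0.07), Nr5a2 1.95-fold (log2 -0.96, SE 0.06), Nr1h4 1.62-fold (log2 -0.69, SE 0.08) and Cyp7b1 1.98-fold (log2 -0.98, SE 0.28, adjusted p 0.00119). Slc27a5 was higher by 0.24 (SE 0.10, adjusted p 0.0219), a call lost without replicate 3 (0.08, adjusted p 0.341), within replicates 4 to 6 (0.06, adjusted p 0.663) and with all genes in the fit (0.14, adjusted p 0.253). Cyp7a1 (-0.22, SE 0.16), Cyp27a1 (0.15, SE 0.11) and Nr0b2 (0.03, SE 0.12) did not pass. Nuclear and total libraries of 1 number deviated together in 34 of 36 pairs, and with the replicate number as a block Cyp7a1 was called lower (-0.25, adjusted p 0.00230) and Slc27a5 was not called (0.16, adjusted p 0.0605). Hepatocyte markers (8 of 8) summed to 24034 to 71372 CPM in nuclear RNA, median 50496, and to 39166 to 98666 CPM in total RNA, median 79404. Stellate cell markers (5 genes, 4 of them with a mean of at least 10 counts in total RNA) summed to 73.2 to 221 CPM in nuclear and 173 to 346 CPM in total RNA, and the part of either shift was not tested.

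In polysomal RNA 5 of the 10 differed, where 76.0% of 11556 genes did (38.8% higher and 37.2% lower): 1 was higher and 4 lower, with a median of -0.26 against 0.02 over all genes. Nr5a2 was 1.98-fold lower, at 37.1 CPM ± 10.8 (18.4, 36.8 and 62.2 CPM) against 69.4 CPM ± 12.0 (41.7, 68.3 and 95.3 CPM; log2 -0.98, SE 0.07, adjusted p 7.44e-21). Baat was 1.5-fold lower (log2 -0.59, SE 0.09) and Nr1h4 1.28-fold lower (log2 -0.36, SE 0.06). Nr5a2, Baat and Nr1h4 were each called lower in both fractions, relative to total RNA.

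Nr0b2 was the member called higher in polysomal RNA, at 31.9 CPM ± 18 against 22.9 CPM ± 10.5 (log2 0.40, SE 0.15, adjusted p 0.0137). That call was lost without polysomal replicate 1 (0.27, adjusted p 0.0822), without replicate 1 or 5 of both series (0.26 and 0.38, adjusted p 0.108 and 0.0541) and with median-ratio size factors (0.31, adjusted p 0.0607). Cyp27a1 was lower by 0.26 (SE 0.08, adjusted p 0.00285), but the value was 0.14 in replicates 1 to 3 alone and -0.72 in replicates 4 to 6 alone, without replicate 4 it was -0.15 (adjusted p 0.115) and without replicate 6 it was -0.17 (adjusted p 0.0854). Cyp7b1 gave -0.26 over all libraries, 1.30 in replicates 1 to 3 alone (adjusted p 0.000429) and -1.94 in replicates 4 to 6 alone (adjusted p 2.10e-06). Cyp7a1, Cyp8b1, Slc10a1 and Slc27a5 were not called in the full edgeR fit. DESeq2 called Cyp7a1 (-0.37, adjusted p 0.0124) and Slc27a5 (-0.22, adjusted p 0.0203) lower, as did edgeR with median-ratio size factors (adjusted p 0.0187 and 0.0235). Without polysomal replicate 1 edgeR called Slc27a5 lower (-0.24, adjusted p 0.00544) and Slc10a1 higher (0.18, adjusted p 0.0254). Red blood cell markers (3 of 3) summed to 891 to 10034 CPM in polysomal and 301 to 5819 CPM in total RNA. Hepatocyte markers summed to 14638 to 64458 CPM in polysomal RNA, median 38115, against the median of 79404 CPM in total RNA, and the part of either was not tested.

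The series was made to follow polyadenylation sites, and the authors' filtered list holds 26 sites within the members. Cyp8b1, Cyp27a1, Nr0b2 and Slc27a5 had 1 site each, Slc10a1 and Nr1h4 2, Nr5a2 3, Cyp7b1 4, Baat 5 and Cyp7a1 6. Positions are those of the authors' list, counted from 1, and genes were joined through the RefSeq gene bounds of GRCm38.p6. Those bounds do not separate exons, introns and untranslated regions, which were not analysed here.

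Cyp7a1 lies on chromosome 4 from 6265612 to 6275632 on the minus strand. Its most 3′ site, chr4:6265593-6265703, took 37.8% ± 6.50 (SD, n = 36; 26.5, 37.1 and 51.8%) of its site counts in total RNA, 61.4% ± 9.70 (38.6, 62.3 and 79.9%) in nuclear RNA and 29.3% ± 8.27 (10.9, 28.2 and 44.1%) in polysomal RNA. The usage test, on site counts with the gene's site total as offset, gave a log2 difference of 0.71 in nuclear RNA (SE 0.06, adjusted p 4.56e-18) and -0.37 in polysomal RNA (SE 0.08, adjusted p 1.67e-05, lost within replicates 1 to 3 at adjusted p 0.0750). A pair of sites 423 and 486 bases before the gene's end went the other way. The one at 486 bases, chr4:6266098-6266219, held 21.2% ± 6.05 in total, 7.03% ± 5.43 in nuclear and 31.4% ± 8.75 in polysomal RNA (log2 -1.66, SE 0.16, and 0.57, SE 0.10), and the one at 423 bases held 13.7% ± 5.93, 10.2% ± 4.94 and 23.1% ± 7.34. Ends at the most 3′ site made up a larger share in nuclear and a smaller one in polysomal RNA than in total RNA. The site at 204 bases moved the same way (log2 0.50, SE 0.17, and -0.69, SE 0.21), with both calls lost within replicates 4 to 6. The sites at 1687 and 1774 bases were lower in nuclear (-1.91 and -0.39) and in polysomal RNA (-1.10 and -0.65). The nuclear call at 1774 bases was lost within replicates 4 to 6. The listed sites held 79.5% of the gene's counts. In Bmal1-/- RNA the most 3′ site held 37.5% ± 6.98, and its difference from the wild type was -0.02 (SE 0.06, adjusted p 0.913).

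Baat (chromosome 4, 49489416 to 49507915, minus strand) used mainly a site 56 bases before its end, with 85.8% ± 3.53 in total RNA and 56.3% ± 10.1 in nuclear RNA (log2 -0.61, SE 0.05, adjusted p 4.98e-19). A site far upstream, chr4:49502843-49502897, which is 13427 bases before the gene's end, rose from 3.30% ± 1.26 (0.567, 3.26 and 5.61%) in total to 27.2% ± 9.78 (7.14, 25.3 and 56.9%) in nuclear RNA (log2 3.02, SE 0.13, adjusted p 8.27e-31). All 36 nuclear libraries lay above all 36 total libraries at that site. In polysomal RNA it held 8.64% ± 6.51.

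Nr1h4 (chromosome 10, 89454234 to 89533645, minus strand) behaved differently: its upstream site, chr10:89478777-89478868, 24543 bases before the end, held 16.3% ± 5.66 in total RNA and only 3.90% ± 3.45 in nuclear and 3.74% ± 3.81 in polysomal RNA (log2 -2.10, SE 0.19, and -2.33, SE 0.25). In Nr5a2 the most 3′ site, chr1:136842568-136842715, rose from 26.1% ± 4.73 in total to 48.2% ± 13.5 in polysomal RNA (log2 0.87, SE 0.08, adjusted p 6.48e-15). Its nuclear value of 0.47 turned to -0.77 when all deposited sites were counted. The second site of Slc10a1, chr12:80955472-80955503, held 1.45% ± 0.583 in total and 19.2% ± 11.3 in nuclear RNA. It was not tested, since its share of the counts pooled over both series was below the minimum of 5%.

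Of the members' sites 15 of 16 tested differed in usage in nuclear RNA and 14 of 15 in polysomal RNA, where 78.8% of 11884 and 70.5% of 12605 sites did. Between Bmal1-/- and wild type 2 member sites were called, where 8.87% of 13463 were, both in Cyp7b1: the site 751 bases before its end held 4.06% ± 3.23 in Bmal1-/- and 8.72% ± 3.25 in wild-type total RNA (log2 -1.07, SE 0.22, adjusted p 0.000322). Within replicates 1 to 3 that difference was -0.46 (adjusted p 0.391). Without replicate 1, 0 member sites were called. Rhythmic usage in wild-type total RNA was called by edgeR for 0 of 14 member sites, where 0.349% of 13166 were, and 1 of the 14 had an unadjusted p under 0.05 (the Cyp7a1 site at 423 bases, p 0.0289).

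**Figure D5:**
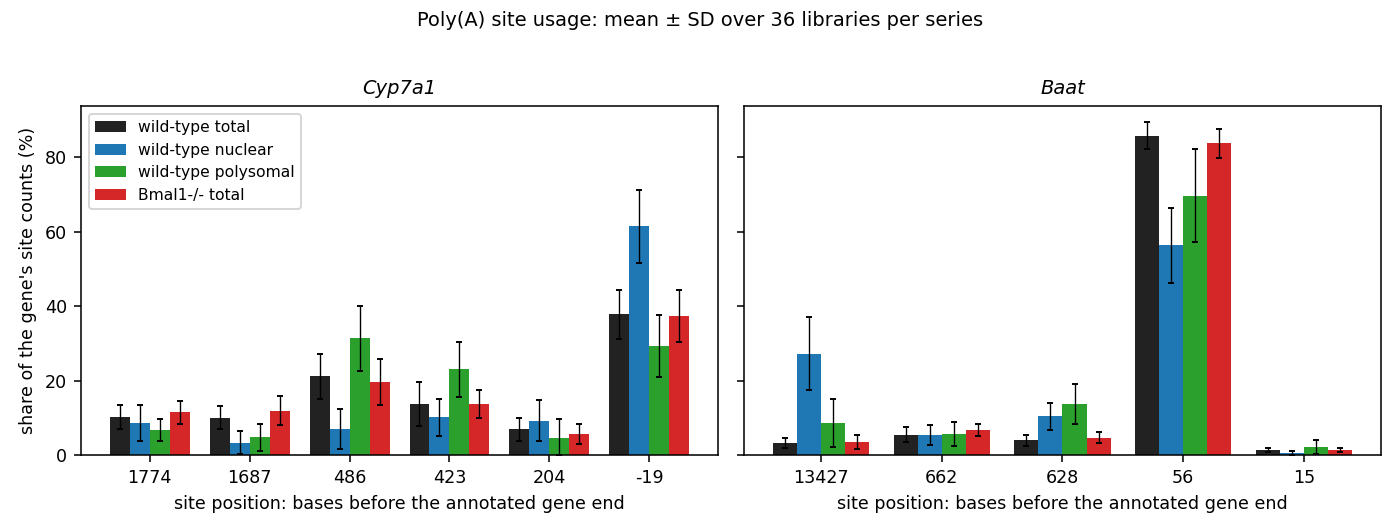
Share of a gene's site counts (percent) at each poly(A) site of Cyp7a1 and Baat in the 4 series, with sites ordered from upstream to the most 3′ and labelled by bases before the annotated gene end; bars are means and lines the SD over 36 libraries, cut at 0. The most 3′ Cyp7a1 site reaches 61.4% in nuclear RNA, and the upstream Baat site 27.2%.

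The other genes of the pathway were taken from lists by function. Of 16 further bile acid enzymes 14 could be tested and 5 were rhythmic in wild-type total RNA, where 18.9% of all genes were (median log2 swing 0.49, against 0.32 over all genes). The largest were Acnat2, an acyltransferase gene of the Baat family (ratio 5.96, peak at 19.8 h), Cyp39a1, an oxysterol hydroxylase (2.55, 18.9 h), and Hsd3b7, the next enzyme after 7α-hydroxylation (1.80, 3.86 h). In Bmal1-/- RNA 0 of the 14 were called. Against the wild type 6 of 14 were higher and 3 lower in level, where 22.4% of all genes were higher and 21.7% lower, with a median of 0.09 against 0.01. Acnat2 (log2 1.42), Cyp2c70, the muricholic acid enzyme (1.19, from 368 to 893 CPM), and Acnat1 (0.50) led the rises, and Acot8 (-0.59), Hsd17b4 (-0.52) and Slc27a2 (-0.35) the falls. In nuclear RNA 3 of 15 were higher and 11 lower, where 83.8% of all genes were called, and in polysomal RNA 5 of 14 were higher and 3 lower, where 76.0% were.

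Of 15 further bile acid and sterol transporters 13 were tested, and 6 were rhythmic in wild-type total RNA (median 0.53; 18.9% of all genes), led by Abcg8 (ratio 2.5, peak at 7.98 h) and Abcg5 (1.88, 9.31 h), the pair of half-transporters that export cholesterol into bile, and Abcb11, the bile salt export pump (1.78, 3.04 h). In Bmal1-/- RNA 0 of the 13 were called, and the rhythm of Abcg8 (adjusted p 0.000244) and Abcg5 (adjusted p 0.0209) differed from the wild type. In level 5 of 13 were higher and 2 lower in Bmal1-/- (median 0.04), where 44.1% of all genes were called: Slco1a4, an organic anion uptake carrier (log2 1.46, 36 to 106 CPM), Abcg5 (0.47) and Abcg8 (0.43) led the rises, while Slc10a2 (-1.89, 14.6 to 4.28 CPM) and Abcc4 (-0.57) were lower. In nuclear RNA 3 of 13 were higher and 7 lower, and in polysomal RNA 3 were higher and 6 lower, where 83.8% and 76.0% of all genes were called.

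Of 15 further receptors and regulators 14 were tested and 7 were rhythmic in wild-type total RNA (median 0.40; 18.9% of all genes), with Nr1i3 (the CAR gene, ratio 2.15), Ppara (1.90) and Fgfr4, the liver receptor for FGF15 (1.63), in front. In Bmal1-/- RNA 0 of the 14 were called, and 2 were higher and 6 lower in level (median -0.17), where 44.1% of all genes were called. Ppargc1a (0.52) and Fgfr4 (0.31) were higher, and Ppara (-0.38), Nr1i2 (-0.29) and Mafg (-0.27) were lower. In nuclear RNA 5 of 14 were higher and 6 lower, and in polysomal RNA 6 and 6, where 83.8% and 76.0% of all genes were called. The 8 clock factors with known action on Cyp7a1 or Nr0b2 were called rhythmic in all 3 wild-type series (8 of 8 each, against 18.9%, 5.99% and 7.90% of all genes in total, nuclear and polysomal RNA), with ratios in total RNA up to 95.4 for Dbp, 46.6 for Nr1d1 and 14.1 for Arntl. In Bmal1-/- RNA 0 of the 7 that could be tested were called, where 0.00825% of all genes were, and the rhythm differed for 7 of 8, where it did for 5.18%. Dbp stood at 27 CPM in wild-type and 2.74 CPM in Bmal1-/- total RNA, and Nr1d1 at 14.8 and 0.713 CPM.

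The libraries of 1 group were used to ask whether Cyp7a1, Cyp8b1 and Nr0b2 went together at a given time, with each group's mean removed. Of 12 relations (3 pairs in 4 series, permutation within times) 0 passed the adjustment. Nr0b2 and Cyp8b1 gave r = 0.47 and rho = 0.41 in nuclear RNA (p 0.0136 and 0.0254, adjusted p 0.149 and 0.102), which fell to 0.34 without the 2 libraries farthest from the median. In polysomal RNA they gave r = 0.40 and rho = 0.37 (p 0.0371 and 0.0431, adjusted p 0.149 and 0.129), which fell to 0.29, and in wild-type total RNA r = 0.18. Nr0b2 and Cyp7a1 gave r = -0.08 in total RNA (p 0.696). Cyp7a1 and Cyp8b1 gave r = 0.38 and rho = 0.43 in Bmal1-/- RNA (p 0.0345 and 0.0177, adjusted p 0.149 and 0.102). In wild-type total RNA that pair gave r = 0.27 and rho = 0.41 (p 0.201 and 0.0233, adjusted p 0.535 and 0.102). Its r was 0.13 in nuclear and 0.14 in polysomal RNA. Within replicates 1 to 3 and 4 to 6 the nuclear value for Nr0b2 and Cyp8b1 was 0.66 and 0.38, and neither passed.

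As a description, the genes whose log2 levels followed a member most closely over the 36 wild-type total libraries, of 7972 searched, were Slc16a12 (r = 0.732), Noct (0.717) and Por (0.704) for Cyp7a1, Gm4952 (0.724), Cpeb2 (0.705) and Gm5096 (0.683) for Cyp8b1, and 8430408G22Rik (0.691), Efna1 (0.657) and Abcb11 (0.648) for Nr0b2. These libraries share the 6 times, so a common daily course enters the values.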

How the data were processed

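QuantSeq 3′ mRNA libraries of mouse liver were analysed, 144 in 4 series of 36. The authors deposited raw counts per gene and per poly(A) site, and a filtered list of 29199 of the 86780 sites; the submitters' processing notes name STAR 2.4.2a, edgeR and HOMER and the builds mm10 and GRCm38.p5, without their roles. Groups were taken from the sample labels. The members and gene lists were chosen with earlier results of these data known.

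Counts were fitted with edgeR 4.0.16 in R 4.3.3 (TMM, quasi-likelihood F tests, robust), on genes averaging 10 or more counts a library, with Benjamini-Hochberg adjustment over all genes tested and calls under 0.05. Rhythm was a cosine and sine of 24 h; its difference between series was their interaction with the series. Levels were contrasts of time groups. Site usage was fitted to the counts of each site, offset by the log of its gene's summed sites plus 0.5, in genes averaging 50 counts with no fewer than 2 sites of 5% or more of the counts pooled over the series compared. Sites were given to genes by RefSeq GRCm38.p6 position, up to 1000 bases past the end, on the strand of the promoter windows. Cyp7a1, Cyp7b1, Baat and Slc27a5 had no window. For such genes the strand taken was the one whose summed site counts lay nearer to the gene's count. Where both sources were known, they gave the same strand in 98.3% of 7444 genes. The fits were tested on simulated counts with 1 spread for all genes. There the rhythm fit missed most of the changed genes, and the level fit recovered most of them. In wild-type total RNA the members' median coefficient of variation between libraries of 1 time ran from 11.5% (Slc27a5) to 71.3% (Cyp7b1). The simulated outcome therefore does not tell what share of rhythms was missed in these data.

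Median totals were 7749864, 3993642, 5058210 and 7875181 counts in total, nuclear, polysomal and Bmal1-/- RNA. No 2 libraries of a group were identical (0 of 360 pairs). Alternatives were DESeq2 1.42.0, other size factors, no count filter, the replicate block, replicates 1 to 3 or 4 to 6, all series in 1 fit, and each replicate number left out. Of each further list the text names up to 3 called genes in each direction with the largest change, or the 3 largest rhythms.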

Additional observations from a re-analysis of the deposited data

Results flagged for a closer look

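In 240 groups of 6 libraries (10 genes, 24 groups), 19 libraries stood apart, where chance gives about 12 (1 in 20 groups): their gap to the nearest library, as a share of the group's range, exceeded Dixon's critical value for 6. Among the synthesis enzymes these were Cyp8b1 in Bmal1-/- at ZT6, replicate 5, at 244 CPM (the others 96.9 to 138), Cyp27a1 in nuclear RNA at ZT10, replicate 4, at 583 CPM (275 to 336), and Cyp7b1 at ZT10 in total RNA, replicate 6, at 593 CPM (50 to 231) and in polysomal RNA, replicate 2, at 614 CPM (63.3 to 236). The Cyp8b1 library lies in the group of its call at ZT6.

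Nr0b2 stood apart at ZT18 in total RNA, replicate 4, at 5.15 CPM (the others 14.8 to 20.3), and at ZT6 in polysomal RNA, replicate 1, at 67.6 CPM (26.8 to 36.4) and in Bmal1-/-, replicate 6, at 45.3 CPM (19.5 to 26.4). Nr1h4 did so in nuclear RNA at ZT22, replicate 4, at 52.7 CPM (19.9 to 31.9) and in Bmal1-/- at ZT14, replicate 5, at 72 CPM (46.6 to 51.8). Nr5a2 did so in total RNA at ZT2, replicate 2, at 94.5 CPM (64.1 to 72.7) and at ZT18, replicate 5, at 86.5 CPM (53.4 to 63.2).

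Baat stood apart in total RNA at ZT2, replicate 4, at 210.1 CPM (the others 112 to 147), and in nuclear RNA at ZT2, replicate 3, at 37.4 CPM (52.9 to 58.0) and at ZT18, replicate 5, at 82.5 CPM (55.4 to 62.5). In polysomal RNA replicate 3 was high for Slc10a1 at ZT14, 423 CPM (230.3 to 291), and ZT18, 333 CPM (181 to 232), and for Slc27a5 at ZT2, 1042 CPM (248 to 494). In Bmal1-/- Slc10a1 had 354 CPM at ZT2 in replicate 6 (181 to 244) and 139 CPM at ZT6 in replicate 1 (214 to 257).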

How the results depend on the processing

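Of 1973 alternative values of single members and sites 1811 kept their direction and side of the threshold, 102 lost and 43 gained a call and 17 turned. Turned level differences (log2), none of them called in the full fit except Cyp27a1, were, in Bmal1-/-, Baat (0.03 in replicates 1 to 3, 0.01 without replicate 4), Cyp7a1 (-0.17 in replicates 1 to 3), Slc10a1 (-0.16 in replicates 1 to 3, -0.05 without replicate 5 and -0.00 without 6, up to 0.13 without 1) and Slc27a5 (0.06 in replicates 4 to 6). In nuclear RNA Nr0b2 turned (-0.07 with all genes and in replicates 4 to 6, -0.03 without replicate 3, up to 0.09 without 6). In polysomal RNA Cyp27a1 (0.14), Cyp7b1 (1.30) and Slc27a5 (0.11) turned in replicates 1 to 3, and without replicate 6 Cyp7b1 (0.21, lowest -0.68 without 2) and Slc27a5 (0.01, lowest -0.29 without 1). With all deposited sites the usage of the main Cyp7b1 site in polysomal RNA (0.15) and of the most 3′ Nr5a2 site in nuclear RNA (-0.77) turned. Correlations that turned were Cyp7a1 with Cyp8b1 without centring (-0.03 total, -0.05 nuclear, -0.16 polysomal), in replicates 1 to 3 of nuclear RNA (-0.15) and 4 to 6 of polysomal RNA (-0.06), Nr0b2 with Cyp7a1 in nuclear RNA (-0.36 without centring, -0.04 in replicates 1 to 3) and in replicates 4 to 6 of total RNA (0.06), and Nr0b2 with Cyp8b1 in replicates 1 to 3 of total RNA (-0.08). Without centring 4 relations passed. Rhythmic members in total RNA numbered 1 in replicates 4 to 6 and 3 to 6 without 1 replicate. In nuclear RNA they numbered 1 with all genes or in replicates 1 to 3, 0 in replicates 4 to 6 and 1 to 2 without 1 replicate, and in polysomal RNA 1 in replicates 1 to 3, 5 with all 4 series in 1 fit and 1 to 3 without 1 replicate. The rhythm difference of Bmal1-/- was called for 1 member with DESeq2 and for 1 without the Xist libraries. The 7 pairs of member and time became 4 with all genes, 3 in replicates 4 to 6, 2 with all 4 series in 1 fit and 4 to 7 without 1 replicate. Sites called in Bmal1-/- became 0 with sites of at least 10%, in replicates 1 to 3 or with all deposited sites, and 0 to 4 without 1 replicate, and with sites of at least 10% there were 9 in nuclear and 9 in polysomal RNA. Same-numbered libraries of nuclear and total RNA deviated together (mean r 0.27, over 0.1 in 34 of 36 pairs, 31 best with their own number), those of polysomal and total RNA did not (mean r -0.096, 0 of 36) and those of Bmal1-/- and wild type did in 11 of 36. The labels do not say what a number stands for, and the fits reported have no block. With the replicate block the rhythmic members in polysomal RNA numbered 5, the rhythm difference of Bmal1-/- was called for 1 member, and 4 member sites were called in Bmal1-/-. The block also called the nuclear rhythm of Slc10a1 (adjusted p 0.0131) and the Bmal1-/- level of Slc27a5 (-0.11, adjusted p 0.0285), and the polysomal level of Nr0b2 lost its call (0.35, adjusted p 0.0872). The causes were not tested.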
